A study of Homo sapiens with 28 samples.

Results

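The genes of Polycomb repressive complex 2 (PRC2) were examined for N6-methyladenosine (m6A) on caRNA, the chromatin-associated RNA recovered with the chromatin fraction of nuclei. The list held 10 genes (EZH1, EZH2, EED, SUZ12, RBBP4, MTF2, PHF19, PHF1, JARID2 and AEBP2) of 20033 protein-coding genes in the annotation. A peak belonged to a gene when its summit lay from 1000 bases upstream of the gene start to the gene end on the gene strand. Such peaks are called sense peaks, and peaks on the other strand are called antisense. Together the 14 libraries listed 334 sense and 51 antisense peaks in these genes.

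The peaks came from methylated RNA immunoprecipitation sequencing (MeRIP-seq), which sequences RNA fragments enriched by an m6A antibody. Unmodified (WT) HepG2 hepatoma cells (n = 2) and WT K562 myelogenous leukaemia cells (n = 2) were profiled. The Control and RBFOX2 KD groups of K562 (n = 2 each) and of NB4 (n = 3 each) were leukaemia cells with a lentiviral short hairpin RNA, a control hairpin (shNS in the study) or one against the RNA-binding protein RBFOX2 in the knockdown (KD) groups. NB4 is an acute promyelocytic leukaemia line. K562 KD cells were kept as a stable line under puromycin, and the labels do not give which RBFOX2 hairpin a sample carried. The study's methods call the replicates biological, while the labels do not say whether they were separate cultures, and p-values measure only the spread between these libraries.

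PRC2 places methyl groups on H3K27, the histone mark of Polycomb-silenced chromatin. EZH1 and EZH2 are alternative catalytic subunits, EED binds the finished mark, SUZ12 is the scaffold on which the complex assembles and RBBP4 binds histones. The Polycomb-like proteins MTF2, PHF19 and PHF1 recruit one form of the complex to CpG-rich DNA, and JARID2 and AEBP2 define another form. PRC2 also binds RNA, and its levels and mutations are much studied in blood cancers. m6A is written mostly on adenosines in a GGAC context, typically in long internal exons, near stop codons and at the starts of transcripts.

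The deposited lists had between 23426 and 45664 peaks, and 22700 to 44088 were used once peaks outside the numbered and sex chromosomes had been dropped. The effective read depth recovered from the deposited values was 10.8 to 25.6 M in 11 libraries and is only approximate in HepG2 WT 1 and 2 (26.9 and 30.0) and NB4 Control 3 (15.6). Of 8 markers fixed for HepG2 3 to 6 had a sense peak there, against 0 to 1 in K562 and 0 in NB4. Of 7 markers for K562 6 to 7 had one there, 0 in HepG2 and 0 to 1 in NB4, and of 7 for NB4 6 had one in each NB4 library, 1 in HepG2 and 2 to 3 in K562. ALB and AFP had no peak in HepG2 and ELANE none in NB4. The knockdown cannot be checked here, because peaks do not measure transcript level and RBFOX2 itself kept 1 to 3 sense peaks in every hairpin library.

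Each gene had a few recurrent places. Overlapping peaks were merged by strand, which gave 62275 regions with a peak in at least 2 libraries of 1 group, and 41 of these were sense regions of PRC2 genes. The sequences at the recurrent exonic regions and at the region with the largest knockdown difference in NB4 are shown first, to give a stretch of transcript near each peak. Each is the transcript-strand sequence on hg38 around the GGACT, or else the GGAC, nearest to the median summit, with that motif in capitals. The A of the motif lay from 0 bases (MTF2 5′ UTR) to 69 bases (SUZ12 exon 16) from that summit. The capitals do not mark a measured site of methylation.

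EZH1 3′ UTR, near the stop codon: cttggtctcccaGGACagagagttacag
EZH1 3′ UTR, near the gene end: taccctcaagctGGACTgtgggttccaaa
EZH2 exon 10: atagggaagcagGGACTgaaacgggggga
EED 5′ UTR: tcttaatccaacGGACcttacatcgtgt
SUZ12 exon 16: aagaacaaaatgGGACagcaaatggatt
MTF2 5′ UTR: cagtaagtgctcGGACTcgcaggggaagc
PHF19 exon 15: tggagtgggaagGGACcaccccttactg
PHF1 exon 6: actgaaggggctGGACTgggatgctggac
JARID2 5′ UTR: atcagacactaaGGACcttcacgtttcg
JARID2 exon 7: agaactggtcaaGGACaccaaacccaat
JARID2 exon 8: cagaactgcccaGGACcggctggccaag
JARID2 3′ UTR: gcagctgaaggcGGACgttgtttcctaa
AEBP2 exon 1: ccaggccggggaGGACgaagacgaggag

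In the order of the lines above these stretches lie at chr17:42702305-42702332 and chr17:42700677-42700705 (minus strand, EZH1), chr7:148817932-148817960 (minus, EZH2), chr11:86244916-86244943 (plus, EED), chr17:31998891-31998918 (plus, SUZ12), chr1:93079434-93079462 (plus, MTF2), chr9:120857945-120857972 (minus, PHF19), chr6:33413480-33413508 (plus, PHF1), chr6:15246168-15246195, chr6:15496287-15496314, chr6:15501022-15501049 and chr6:15520814-15520841 (plus, JARID2) and chr12:19439972-19439999 (plus, AEBP2). Within 75 bases of the median summit, 27 of the 41 PRC2 regions held GGAC on the transcript strand, or 65.9%, beside 58.7% of all 62275 regions. On the opposite strand GGAC was present in 26.8% of the PRC2 regions and 30.1% of all regions. The longer GGACT, which contains GGAC, occurred in 11 PRC2 regions (26.8%) and in 24.8% of all regions. A match is a description of the letters only. MTF2 exon 15, AEBP2 intron 1, RBBP4 exon 2 and EZH2 intron 12 held no GGAC in this window.

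TGCATG, the canonical element that RBFOX proteins bind in RNA, occurred on the transcript strand in 1 of the 41 PRC2 windows (2.44%) and in 3.60% of all regions. On the opposite strand it occurred in 4.88% of the PRC2 windows and 4.71% of all regions. The transcript-strand window was SUZ12 exon 16. There the centre of the element lay at -63 bases from the median summit, at chr17:31998759-31998788 on the plus strand with its flanks. It is printed with TGCATG in capitals because the same region had the largest knockdown difference of the 13 PRC2 regions tested in NB4 by log2 fold. That difference did not pass adjustment. Without NB4 Control 1 it was 0.43, smaller in size than the -0.68 at the EZH1 3′ UTR region near the gene end. A link between the element and the knockdown difference was not tested.

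SUZ12 exon 16, RBFOX element: atctagtcagcaTGCATGactttaatctta

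AGATG, a motif that the study connects with RBFOX2, occurred on the transcript strand in 14 of the 41 PRC2 regions (34.1%) and in 22.99% of all regions, and on the opposite strand in 17.1% and 13.3%. The search for this motif was added after the other values were seen.

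All 10 genes had a sense peak in each of the 6 NB4 libraries. In these, 36.4% of protein-coding genes had one throughout. Each K562 hairpin library listed sense peaks in 8 of the 10 genes, and 8 had one in all 6 K562 libraries, as had 39.1% of protein-coding genes. K562 WT 1 and 2 listed 9 and 8, and both HepG2 libraries listed 6, where 36.3% of protein-coding genes had one in both. EED, SUZ12, MTF2, PHF19, JARID2 and AEBP2 had a sense peak in all 14 libraries, as had 25.4% of protein-coding genes. EZH1 and EZH2 had one in all 12 leukaemia libraries and in neither HepG2 library, a pattern of 2.97% of protein-coding genes. RBBP4 had peaks only in the 6 NB4 libraries, a pattern of 1.91% of protein-coding genes, and PHF1 in these 6 and K562 WT 1. The lists hold only what passed the caller, so a missing peak is not a measured absence of methylation, and fewer transcripts and fewer methylated transcripts cannot be told apart.

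**Figure D1:**
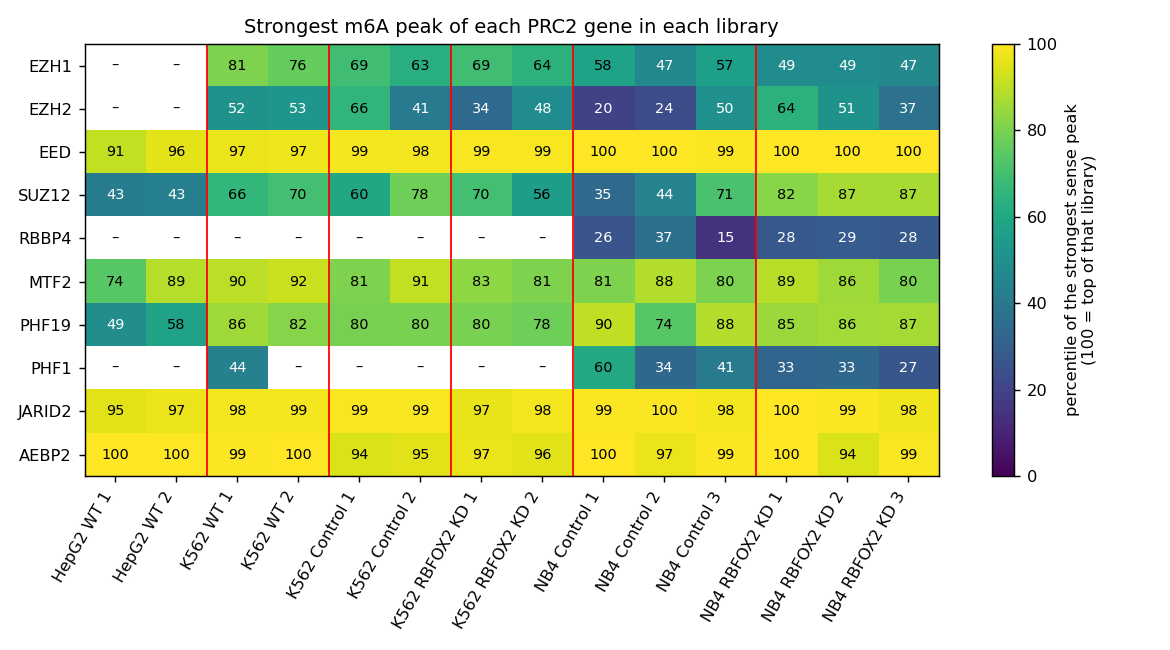
Percentile of the strongest sense peak of each PRC2 gene (rows) in each of the 14 libraries (columns, red lines between the 6 groups), where 100 is the top of that library's list by -log10 q and a dash means that no sense peak was listed. EED, JARID2 and AEBP2 sit above 90 in each library, whereas RBBP4 stays at 37.0 or lower and is listed in NB4 alone.

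Ranked by -log10 q within each list, the accessory subunits JARID2 and AEBP2 and the core subunit EED held the strongest peaks. The strongest EED peak lay at a percentile of 90.9 to 95.8 in HepG2, 96.9 to 99.1 in K562 and 99.3 to 99.9 in NB4. JARID2 ranged from 95.5 to 99.6 and AEBP2 from 94.2 to 99.9 over the 14 libraries. The catalytic subunits were much lower. EZH1 reached 76.4 and 80.7 in K562 WT, 62.6 to 69.4 in the K562 hairpin libraries and 46.7 to 58.1 in NB4. How many genes were separated in this way was not counted. The strongest EZH1 peak lay in an intron in K562 WT and, in the K562 hairpin libraries, in the 3′ UTR region near the gene end that overlaps another gene. At the EZH1 region near the stop codon the percentiles were 18.3 to 40.8 in the K562 hairpin libraries and 16.3 to 56.4 in NB4, which overlap. EZH2 reached 34.0 to 66.0 in K562 and 19.9 to 64.3 in NB4, which overlap widely.

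SUZ12 lay between, at 42.5 and 43.3 in HepG2, 55.8 to 77.8 in K562, 34.7, 44.3 and 71.2 in NB4 Control and 82.2, 86.8 and 87.0 in NB4 RBFOX2 KD. The strongest SUZ12 peak of NB4 Control 1 was intronic, and its exon 16 peak lay at 2.66. MTF2 ranged from 74.2 to 92.2 and PHF19 from 49.2 to 90.2, with 49.2 and 57.6 in HepG2. PHF1 ranged from 26.9 to 60.3 where it was listed.

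The protein-coding genes whose percentile profile over the 14 libraries was nearest to EED were EP400, ZMYND8 and AHDC1, at a mean absolute difference of 0.631, 0.641 and 0.660 percentile points. For EZH1 these were KREMEN2, POLA2 and DPP8 (4.23, 4.65 and 6.31 points), for SUZ12 LRR1, HMBOX1 and TMX3 (6.63, 7.60 and 7.79), and for EZH2 ZIC5, FLOT2 and ENSG00000258677 (4.89, 7.73 and 7.81). EED lies near the top of a bounded scale, so these distances are not comparable between the 4 genes.

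**Figure D2:**
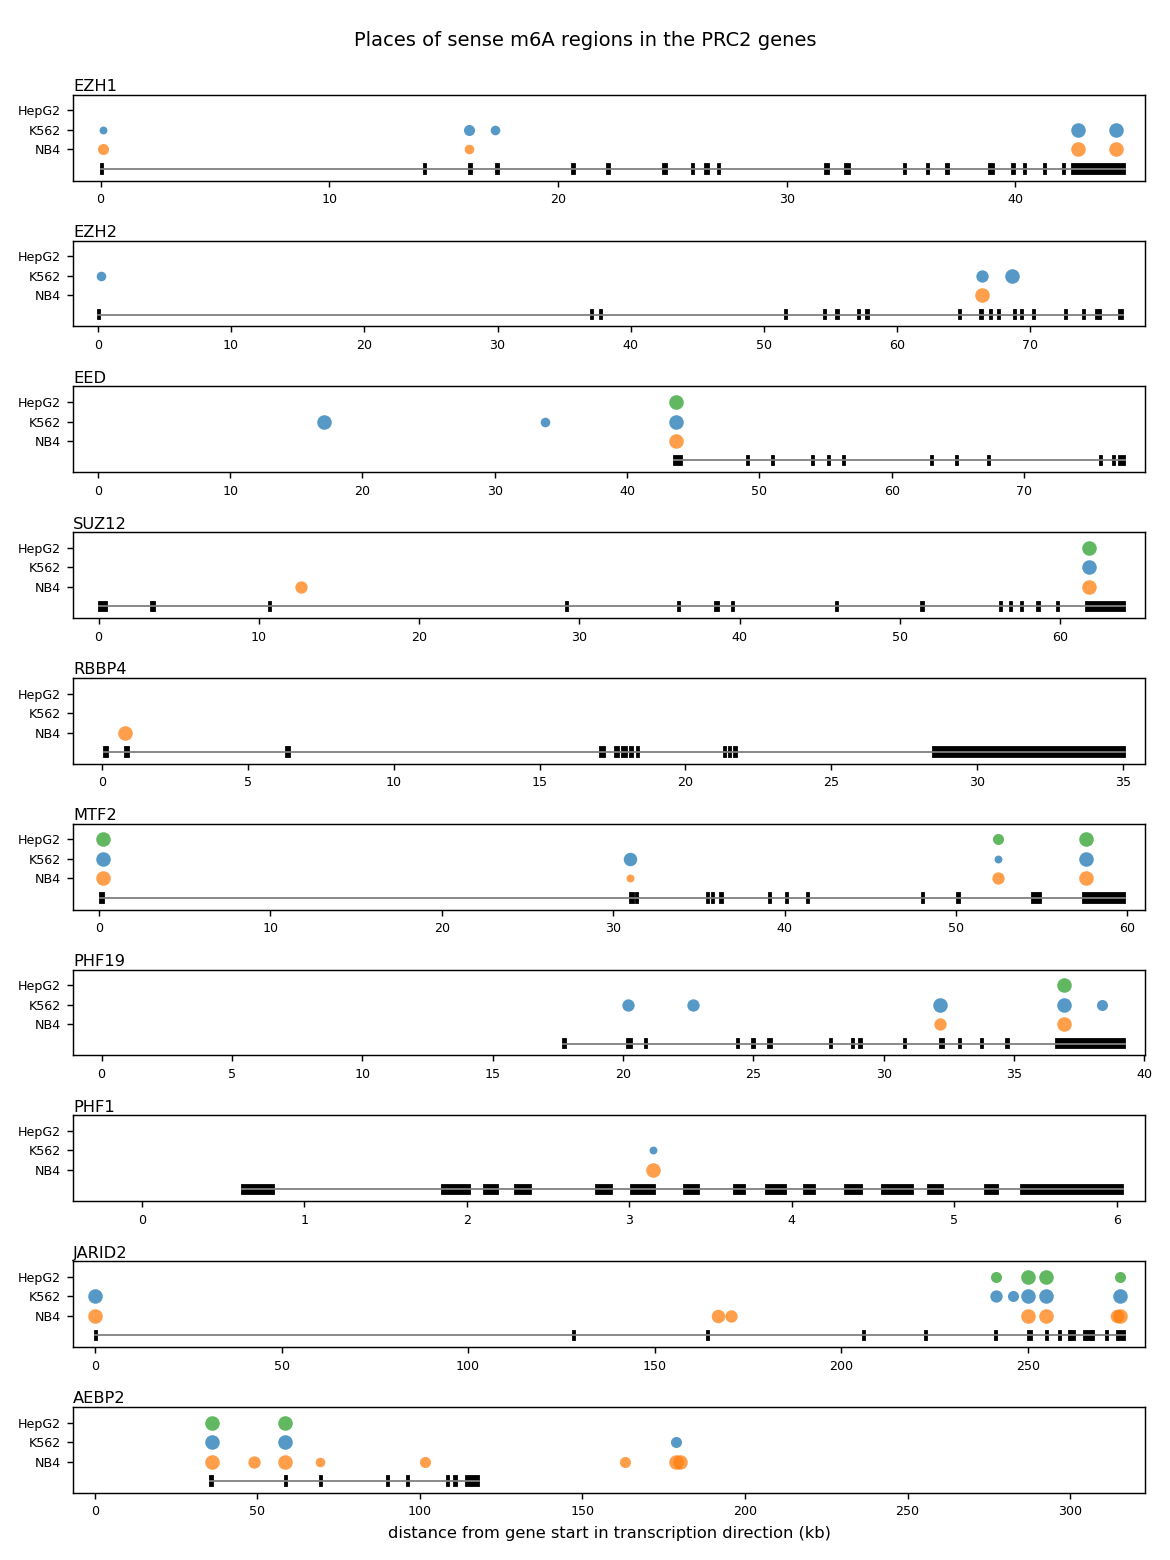
Places of the 41 sense regions along each PRC2 gene, in kb from the gene start in the direction of transcription, with a row of dots for each cell line, a dot area that grows with the share of that line's libraries listing the region, and canonical exons in black. SUZ12, PHF19, MTF2, EZH1 and JARID2 carry a region in the last exon. JARID2 and AEBP2 carry the largest numbers of regions, in AEBP2 with those beyond its canonical end included.

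By the median summit in the canonical transcript, 12 of the 41 PRC2 regions were coding (29.3%), 3 in 5′ UTRs (7.32%), 4 in 3′ UTRs (9.76%), 17 in introns (41.5%), 2 upstream of the canonical start and 3 beyond the canonical end. Among 43880 placements of regions in protein-coding genes, 23.5% were coding, 4.30% in 5′ UTRs, 11.98% in 3′ UTRs and 50.1% in introns. The places of the 9 regions listed in all 14 libraries were 5 coding exons outside AEBP2, AEBP2 exon 1, the 5′ UTRs of EED and MTF2, and AEBP2 intron 1.

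Folds are given as deposited. Over the regions tested their median was 12.6 to 14.5 in the K562 hairpin libraries and 7.35 to 8.36 in NB4, and in the WT comparison 9.41 and 9.49 in K562 and 4.26 and 4.91 in HepG2. An order of raw folds between lines therefore includes this shift over all regions, and the centred tests further down leave it out. Without centring, limma called 7387 of 10535 regions lower and 426 higher in NB4 than in K562. For K562 WT against HepG2 WT it called 9694 of 12860 higher and 194 lower. How many regions had raw folds fully separated between lines was not counted.

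The catalytic subunits had their common regions in different places. EZH1 carried 2 regions in its last exon, exon 21, both in the 3′ UTR and both listed in all 12 leukaemia libraries. The first (chr17:42701918-42702462) had its median summit 226 bases past the stop codon and a fold, the summit pileup over the local background, of 3.28 to 6.96. The second (chr17:42700436-42700813) lay 1862 bases past the stop codon and overlapped an unnamed gene of the same strand, ENSG00000267765, so its reads cannot be assigned to EZH1 alone. Its fold was 3.20 to 9.92.

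EZH2 had no region in its last exon. The region in exon 10 (chr7:148817918-148818115) was listed in both K562 WT libraries, both K562 KD libraries and all 6 NB4 libraries, but in neither K562 Control library. Its fold was low throughout, at 2.02 and 2.11 in K562 WT, 1.96 and 2.37 in K562 KD, 2.15, 2.02 and 2.58 in NB4 Control and 3.13, 2.49 and 2.19 in NB4 KD. The local mean under this peak was 60.2 to 158 reads per position, against 7.45 to 32.9 at the EED 5′ UTR. A second EZH2 region, in intron 12 (chr7:148815610-148815827), was listed in all 6 K562 libraries and in no other. Its summit fell in an exon of 3 alternative EZH2 transcripts of the nonsense-mediated decay or retained intron class. Its fold was 4.19 and 3.75 in K562 WT, 8.23 and 4.14 in Control and 3.74 and 6.42 in KD.

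Of the core subunits, EED carried its main region at the canonical first exon (chr11:86244542-86245340), in the 5′ UTR. Its fold was 6.59 and 10.9 in HepG2, 13.6 and 14.1 in K562 WT, 33.1 and 32.8 in K562 Control and 42.6 and 47.3 in K562 KD. In NB4 it was 29.3, 23.6 and 15.5 in Control and 29.3, 20.0 and 23.3 in KD. In raw fold the HepG2 values were the lowest and the K562 hairpin values the highest, whereas by percentile NB4 was highest, and the centred difference between NB4 and K562 was 0.10 (SE 0.19, limma adjusted p = 0.704). A further EED region 26411 bases upstream of the canonical start (chr11:86218244-86218463), inside the span of 1 longer EED transcript but in none of its exons, was listed in all 6 K562 libraries and in no other, with a fold of 5.20 to 7.48.

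SUZ12 had its constant region in exon 16, the last exon (chr17:31998693-31999127), with a median summit 167 bases before the stop codon. RBBP4 had a single region, in exon 2 (chr1:32651777-32651956), with a fold of 1.98 to 2.45 in NB4. The local mean there was 57.2 to 93.3, and the peak never rose above a percentile of 37.0.

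MTF2 and PHF19 resembled SUZ12 in having a coding region close to the stop codon in the last exon. The median summit was 173 bases before the stop codon in MTF2 (chr1:93136579-93137156, exon 15) and 43 bases before it in PHF19 (chr9:120857696-120858282, exon 15). MTF2 also had a region at its start (chr1:93079299-93080127), assigned to the 5′ UTR in 12 of 14 libraries. The fold at MTF2 exon 15 was 3.77 and 5.38 in HepG2, 9.197 and 11.6 in K562 WT, 8.95 and 12.4 in K562 Control, 8.99 and 9.41 in K562 KD, 4.51, 5.55 and 3.68 in NB4 Control and 5.41, 4.98 and 4.31 in NB4 KD. All K562 raw folds lay above those of HepG2 and NB4, but the percentiles overlapped and the centred differences were -0.23 for NB4 against K562 and 0.15 for K562 WT against HepG2 (limma adjusted p = 0.349 and 0.582). The fold at the MTF2 5′ UTR was 2.67 and 4.07 in HepG2, 6.62 and 7.51 in K562 WT, 8.09 and 14.3 in K562 Control, 10.3 and 9.18 in K562 KD, 3.96, 4.74 and 3.903 in NB4 Control and 4.01, 6.44 and 5.01 in NB4 KD. Here too the K562 raw folds were the highest, with centred differences of -0.31 and 0.05 (adjusted p = 0.262 and 0.858 in limma). The fold at PHF19 exon 15 was 3.36 and 4.37 in HepG2, 9.303 and 7.27 in K562 WT, 9.14 and 13.3 in K562 Control, 10.6 and 9.06 in K562 KD, 9.001, 3.84 and 6.29 in NB4 Control and 5.68, 6.64 and 7.75 in NB4 KD. In PHF19 the K562 and NB4 ranges overlapped. PHF1 had 1 region, in exon 6 of 15 (chr6:33413419-33413655), with a fold of 2.49 to 4.47.

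JARID2 and AEBP2, the longest genes of the list, had the most regions. The AEBP2 number includes 3 regions beyond its canonical end, and without these it did not exceed that of EZH1 or PHF19. JARID2 carried 5′ UTR (chr6:15246006-15246457), exon 7 (chr6:15496007-15497149), exon 8 (chr6:15500793-15501797) and 3′ UTR (chr6:15520517-15521091) regions, listed in 12, 14, 14 and 13 libraries. The 5′ UTR region was missing in both HepG2 libraries and the 3′ UTR region in 1. The fold at JARID2 exon 7 was 5.75 and 8.72 in HepG2, 15.1 and 14.7 in K562 WT, 42.4 and 25.7 in K562 Control, 22.3 and 32.4 in K562 KD, 10.2, 8.91 and 5.68 in NB4 Control and 10.8, 9.05 and 7.25 in NB4 KD. The fold at the JARID2 5′ UTR was 14.7 and 15.1 in K562 WT, 19.01 and 15.4 in K562 Control, 20.7 and 20.6 in K562 KD, 8.32, 5.32 and 4.53 in NB4 Control and 5.44, 5.22 and 9.22 in NB4 KD. At both regions every K562 raw fold lay above every NB4 one. This order includes the shift over all regions, and how many regions share it was not counted. The centred tests are given with the comparison of the lines. AEBP2 carried its strongest region in exon 1 (chr12:19439467-19440690), a GC-rich coding stretch with 73.5% G or C around the summit, and a second in intron 1, whose median summit was 5 bases from the exon boundary (chr12:19462365-19462701). A region far beyond the canonical end of AEBP2 (chr12:19583900-19584198), inside the span of 1 longer transcript and outside its exons, was listed in the 6 NB4 libraries and in no other, at a fold of 4.59 to 7.19. The next region upstream (chr12:19582514-19583059) overlapped another gene of the same strand, ENSG00000287074. This neighbour was listed in all 6 NB4 libraries and in 1 library of each K562 group. Its fold was 6.77 to 12.3 in NB4 and 3.14 to 5.13 in K562. Whether the reads at either region belong to AEBP2 was not tested.

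Antisense peaks were concentrated in the same pair of genes, with 32 in JARID2 and 15 in AEBP2 of 51 in all, 3 in PHF19 and 1 in PHF1. An antisense region over AEBP2 exon 1 (chr12:19439721-19440050) was listed in 9 libraries, among them all 6 of NB4 with a fold of 7.14 to 16.02 and both K562 WT libraries with 6.26 and 5.10. An antisense region 10017 bases upstream of the AEBP2 canonical start (chr12:19429389-19429559) was listed in all 6 K562 libraries and in no other, with a fold of 4.97 to 12.5. Neither of these antisense regions was listed in HepG2.

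The first comparison asked whether RBFOX2 knockdown changed m6A at these genes. Over both lines no PRC2 region passed the test. The log2 fold of regions listed in all 10 hairpin libraries was centred on each library's median and tested with limma, and 0 of 13 PRC2 regions passed an adjusted p of 0.05, as did 0 of 10535 regions (0%). At an unadjusted p under 0.05 there were 0 PRC2 regions and 871 of all. The mean difference (KD minus Control, log2) of the PRC2 regions ran from -0.24 to 0.34 with a median of -0.00185, beside -0.01 over all regions. On the summit pileup, described with SUZ12, 0 of 13 passed as well, beside 0.361% of all regions higher and 0.0949% lower. No sense region of these genes was listed in every KD library and in no Control library of both lines, or the reverse (0 of 38), beside 0.0296% and 0.00555% of all regions.

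In NB4 alone 0 of 13 PRC2 regions passed, beside 0.057% of all regions higher and 0.0285% lower, and 0 of 31 were listed in 1 of the groups only, beside 4.44% in KD and 0.781% in Control. SUZ12 exon 16 was higher in every knockdown library than in any Control library. Its fold was 2.90, 6.41 and 9.18 in NB4 Control (6.16 ± 3.15, SD, n = 3) and 10.4, 11.1 and 11.2 in NB4 KD (10.9 ± 0.405, n = 3). The spread of the Control libraries was wide and that of the KD libraries narrow. The difference was 0.95 on the log2 scale (SE 0.40, p = 0.0331), which did not pass adjustment over all regions in limma (adjusted p = 0.267), and an exact two-sided permutation test of the fold gave p = 0.1, the smallest that 3 against 3 allows. Without NB4 Control 1 the difference was 0.43 (adjusted p = 0.565 in limma). Every KD library lay above every Control library at 10.3% of all regions.

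The SUZ12 pileup can be given for 2 of the 3 Control libraries, since that of Control 3, which had the highest Control fold, is approximate. The summit pileup, the number of extended reads stacked at the summit, was 41 and 59 in NB4 Control 1 and 2 and 144, 163 and 160 in the NB4 KD libraries, on local means of 13.5 and 8.35 and of 12.9, 13.8 and 13.4. The depth of these Control libraries was 10.8 and 14.1 M effective reads and that of the KD libraries 21.9, 18.6 and 16.8, so raw pileups are not at equal depth. With the median-centred log2 pileup in place of the fold, an alternative chosen after the values were seen, the SUZ12 difference in NB4 was 1.06 (SE 0.21, limma adjusted p = 0.01002), and 1.30 (adjusted p = 0.00279) without NB4 Control 3, whose pileup is approximate. On that scale 6.54% of all regions were called higher and 3.47% lower in NB4 KD, and SUZ12 exon 16 was the one PRC2 region called of 13. In K562 the same region gave folds of 8.45 and 13.2 in Control and 12.8 and 7.04 in KD, which overlap, with a difference of -0.26 (SE 0.49). The knockdown changes in NB4 and K562 differed by 1.21 (SE 0.63, limma adjusted p = 0.699) on the fold and by 1.13 (SE 0.32, adjusted p = 0.17) on the pileup.

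EZH1 lay the other way in NB4. At the 3′ UTR region near the gene end the fold was 6.28, 5.66 and 5.95 in NB4 Control and 3.23, 3.20 and 5.31 in NB4 KD, so the KD libraries lay below all Control libraries, as they did at 9.68% of all regions. The difference was -0.67 (SE 0.22, p = 0.00976, limma adjusted p = 0.182), and the exact permutation p of the fold was 0.1. The pileups of EZH1 here were 82 and 71 in Control 1 and 2 and 88, 79 and 76 in KD, which overlap, while the local mean was 12.2 and 11.7 in those Control libraries and 26.6, 23.997 and 13.5 in KD. After centring, the pileup differed by -0.27 (SE 0.14, limma adjusted p = 0.238) and the local mean by 0.48 (SE 0.20, adjusted p = 0.127). At the EZH1 region near the stop codon the difference was 0.11 (SE 0.26).

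**Figure D3:**
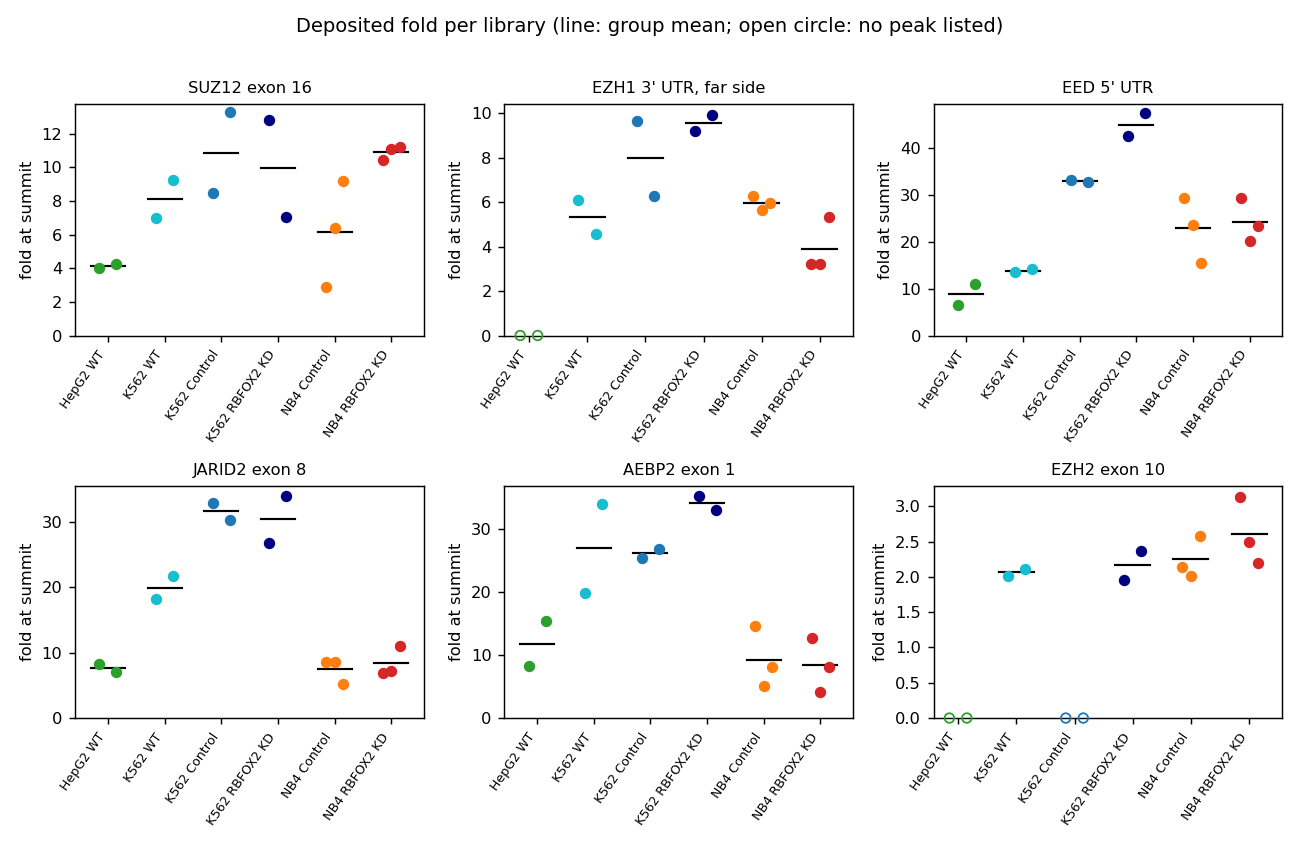
Deposited fold at the summit (vertical axis, starting at 0) in each of the 14 libraries for 6 PRC2 regions, with a line at the group mean and an open circle where no peak was listed. SUZ12 exon 16 shows the 3 NB4 KD libraries at 10.4 to 11.2 above the 3 Control libraries at 2.90 to 9.18, and JARID2 exon 8 and AEBP2 exon 1 show NB4 below K562.

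In K562, EED 5′ UTR, AEBP2 exon 1 and JARID2 5′ UTR had a higher fold in both KD libraries than in either Control library, a pattern of 22.3% of all regions, and none was lower in this way, against 9.01%. The differences after centring were 0.34 (SE 0.29), 0.28 (SE 0.48) and 0.16 (SE 0.30) on the log2 scale, and no region was called in K562 (0% of all regions). EZH2 exon 10 was listed in both K562 KD libraries and in neither Control library, as were 2.13% of regions, and PHF19 exon 2 (chr9:120874624-120874807) was listed in both Control libraries, at 2.88 and 3.03, and in neither KD library, as were 2.11%. Both were near the lower end of the lists, with EZH2 exon 10 at a percentile of 9.65 and 20.4 in KD and PHF19 exon 2 at 27.7 and 35.9 in Control, and with lists cut to equal size neither remained. EZH2 exon 10 was also listed in both K562 WT libraries.

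By centred fold, NB4 and K562 differed most at JARID2 and AEBP2. The labels do not give whether the lines were processed together. Cell line and processing therefore cannot be told apart in any comparison between lines, whether by fold, pileup, local mean or presence. Relative to the median region, which was 0.84 lower in NB4 on the log2 scale, 5 of 13 PRC2 regions had a lower fold in NB4 and 0 a higher one, beside 22.2% and 22% of all regions. JARID2 exon 8 had a fold of 32.9, 30.3, 26.8 and 34.0 in the K562 hairpin libraries and of 5.27 to 10.98 (median 7.92) in the 6 NB4 libraries. The centred difference was -1.16 (SE 0.19, limma adjusted p = 0.000395). JARID2 exon 7 was lower by 0.98 (SE 0.21, adjusted p = 0.00283 in limma), its 5′ UTR by 0.78 (SE 0.20, adjusted p = 0.00654) and its 3′ UTR by 0.68 (SE 0.17, adjusted p = 0.0055). Each of the 4 recurrent JARID2 regions was therefore lower in NB4 by fold. Other JARID2 sense regions with a peak in at least 2 libraries of 1 group were not listed throughout and were not tested. Those in intron 3 and the coding part of exon 18 were listed in 4 or 5 NB4 libraries and in no K562 library. Those in exon 6 and intron 6 were listed in K562 and in no NB4 library.

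AEBP2 exon 1 had a fold of 25.4, 26.9, 35.3 and 33.1 in the K562 hairpin libraries and of 4.10 to 14.7 (median 8.12) in NB4. The centred difference was -1.06 (SE 0.31, limma adjusted p = 0.0144), and it was -1.005 (adjusted p = 0.0529) without K562 Control 2. AEBP2 intron 1 went the other way without being called, at 0.48 (SE 0.21, adjusted p = 0.0726). EED 5′ UTR, SUZ12 exon 16, both MTF2 regions, PHF19 exon 15 and both EZH1 regions were not called, with differences from -0.31 to 0.47.

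The lower JARID2 and AEBP2 folds in NB4 stood on a higher local mean, with summit pileups that were no lower. At JARID2 exon 8 the summit pileup was 336 to 400 (median 373) in the 4 K562 hairpin libraries and 359 to 410 (median 392) in the 5 NB4 libraries with whole pileups. The local mean there was 8.91 to 13.9 in K562 and 32.1 to 58.2 in NB4. AEBP2 exon 1 had pileups of 316 to 385 in K562 and 519 to 605 in NB4 and local means of 8.58 to 12.02 and 36.3 to 142. Tested in the same way, the centred log2 pileup was higher in NB4 at JARID2 exon 8 by 0.45 (SE 0.11, limma adjusted p = 0.0028), at JARID2 exon 7 by 0.58, at its 5′ UTR by 0.45, at its 3′ UTR by 1.12 and at AEBP2 exon 1 by 1.11, each called. The centred log2 local mean was higher by 1.52, 1.46, 1.12, 1.73 and 2.11 at these 5 regions. The fold is the pileup over the local background, so these measures are not independent. The share of all regions with a higher local mean in NB4 was not counted.

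On pileup, 9 of 13 PRC2 regions were called higher and 1 lower in NB4, beside 36.1% and 32.6% of all regions. AEBP2 intron 1 was higher by 1.40 (SE 0.14, limma adjusted p = 1.94e-06), with pileups of 81 to 169 in K562 and 193 to 273 in NB4. EZH1 3′ UTR near the gene end was the region called lower, by 0.39 (SE 0.11), whereas EZH1 near the stop codon was higher by 0.86 (SE 0.15). EED 5′ UTR differed by 0.17 (SE 0.11) and SUZ12 exon 16 by 0.05 (SE 0.16). By rank within a list JARID2 exon 8 was at a percentile of 96.3 to 97.2 in the K562 hairpin libraries and 91.5 to 98.2 in NB4.

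**Figure D4:**
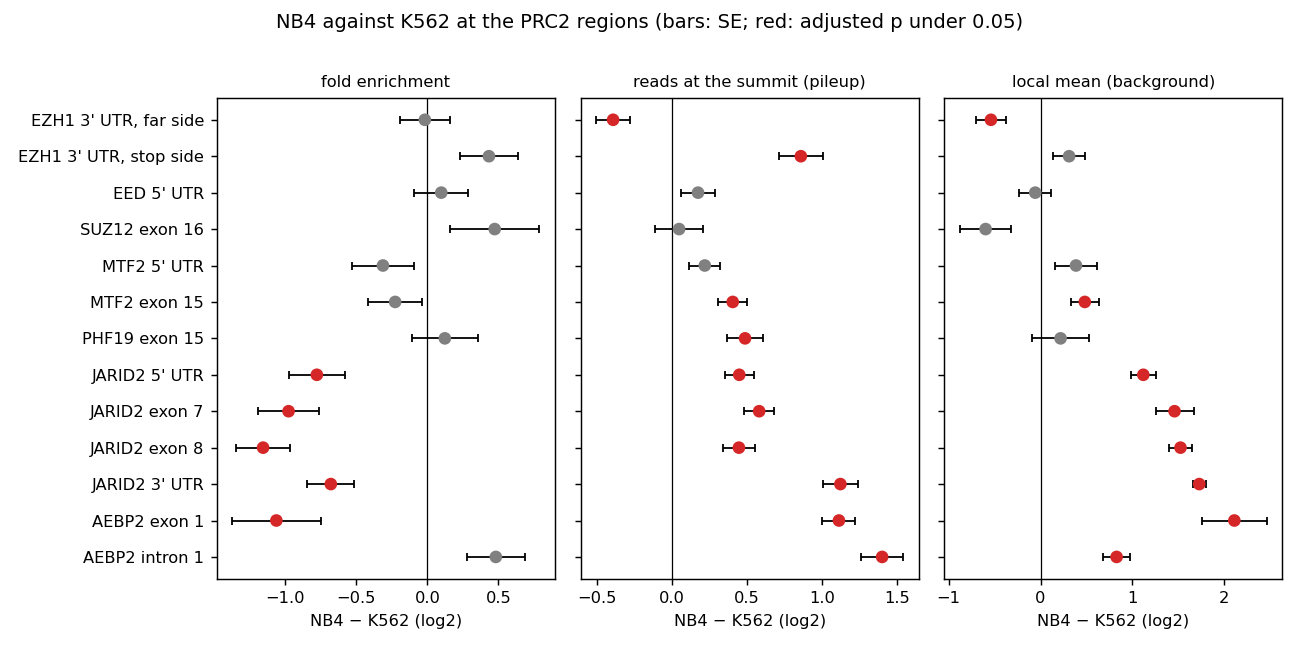
Difference between NB4 and K562 hairpin libraries (log2, centred per library; points with SE bars, red where the limma adjusted p was under 0.05) at the 13 PRC2 regions, for the fold, the summit pileup and the local mean. The 4 JARID2 regions and AEBP2 exon 1 lie left of zero for the fold and right of zero for both the pileup and the local mean.

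6 PRC2 sense regions separated the lines by presence. RBBP4 exon 2, PHF1 exon 6 and the AEBP2 region beyond the canonical end were listed in all 6 NB4 libraries and in no K562 hairpin library, 3 of 38 regions beside 9.02% of all. EED upstream, EZH2 intron 12 and PHF19 intron 3 (chr9:120872113-120872331, fold 5.499 to 6.88) showed the reverse, 3 of 38 beside 16%. With lists cut to equal size the count was 1 in place of 6.

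K562 WT and HepG2 WT shared 9 tested PRC2 regions, and the centred fold differed at 1 of them. AEBP2 intron 1 had a fold of 5.23 and 6.09 in HepG2 and 7.37 and 8.45 in K562, and relative to a median region 1.05 higher in K562 it was lower by 0.56 (SE 0.16, limma adjusted p = 0.0422), but higher by 0.48 without centring. It was no longer called when any 1 of the 4 libraries was left out. Over all regions 14% were called higher and 18.6% lower. On the pileup 6 of the 9 PRC2 regions were called higher and 1, AEBP2 intron 1, lower in K562, beside 29.6% and 33.4% of all regions, but the pileups of both HepG2 libraries are approximate. On the fold the other 8 regions, in EED, SUZ12, MTF2, PHF19, JARID2 and AEBP2 exon 1, differed by -0.34 to 0.34.

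By presence, 12 of 28 PRC2 sense regions were listed in both K562 WT libraries and in neither HepG2 library, beside 44.6% of all regions, and 0 were listed in HepG2 alone, beside 12.2%. The 12 regions comprised 4 in EZH1, 3 in EZH2, 2 in EED, 2 in PHF19 and the JARID2 5′ UTR. With lists cut to equal size the count was 6. HepG2 lists were the shortest, with 22700 and 27438 peaks used, at the highest approximate depth.

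K562 Control and K562 WT did not differ by test at any of 17 PRC2 regions, nor at any of 23473 regions (0%) in limma, where 3 and 6334 had an unadjusted p under 0.05. EED 5′ UTR was the PRC2 region nearest to the threshold, at 33.1 and 32.8 in Control and 13.6 and 14.1 in WT, a centred difference of 0.93 (SE 0.20, adjusted p = 0.0665). The local mean at EED was 12.6 and 11.5 in Control and 32.9 and 32.1 in WT, and the pileups were 448 and 408 and 461 and 465. On the pileup 0 of the 17 PRC2 regions were called, beside 7.55% of all regions higher and 7.58% lower. By presence 3 PRC2 regions, in JARID2 intron 6, PHF19 intron 3 and the PHF19 3′ UTR, were listed in both Control libraries and in neither WT library (6.5% of all regions), and 4 the reverse (18.4%), in EED, EZH1 and EZH2.

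Other Polycomb genes gave a background for the PRC2 list. Of 38 genes of Polycomb repressive complex 1, the H3K27 demethylases, the deubiquitinase complex and further PRC2 partners, 26 had a sense peak in all NB4 libraries, 28 in all K562 libraries, 29 in both HepG2 libraries and 24 in all 14. After RBFOX2 knockdown 0 of their 62 tested regions passed, and the lowest p was at PCGF3 (chr4:765903-766381), higher by 0.57 (SE 0.20, limma adjusted p = 0.533), ASXL2 (chr2:25856306-25856887), by 0.48, and MGA (chr15:41736148-41736766), at -0.43. In NB4 alone the lowest p was at ASXL2, 0.80 (SE 0.21, adjusted p = 0.121). Between lines, 11 of the 62 were higher and 14 lower in NB4, led by ASXL2 at -1.56 (SE 0.17), PHC1 (chr12:8939210-8939773) at 1.72 (SE 0.22) and MBD5 (chr2:148469163-148470421) at 1.28 (SE 0.16). Between the WT lines, 13 of 66 were higher and 5 lower in K562.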

How the data were processed

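MeRIP-seq of caRNA was analysed from 14 immunoprecipitated libraries. Input libraries were not analysed here. The authors trimmed reads with Trimmomatic 0.39, aligned them to hg38 with HISAT2 2.1.0, sorted them with SAMtools 1.9 and called peaks per library and strand with MACS2, and whether input served as background is not given in the sources used here. The deposited peak lists hold a fold (a ratio of summit pileup to local background), a -log10 p, a -log10 q and a display score per peak, and their lowest -log10 q was about 2.00.

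Peaks were placed by summit in GENCODE 44 on hg38. Summit pileup and local mean were recovered from the deposited fold and -log10 p values, with an extension of 150 bases and a genome size of 1.3e+08. In HepG2 WT 1 and 2 and NB4 Control 3 only 10.3%, 9.83% and 9.28% of pileups came out whole, so their pileups are not printed. The percentile ranks a peak by -log10 q within its list, with 100 at the top and 0 where no peak was listed. Regions with a peak in every library of a comparison were tested on log2 fold, centred on each library's median, with limma 3.58.1 in R 4.3.3 and Benjamini-Hochberg adjustment over all regions at 0.05. For 1 region in 1 comparison of 3 against 3, exact permutation tests were two-sided. Other steps used Python 3.11.15, numpy 2.4.6, pandas 2.3.3 and matplotlib 3.10.9. The scripts were tested on simulated data.

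The members and lists were chosen with earlier results of these data known. All 10 genes are named. Regions are described in full when listed in all 14 libraries, called in a comparison or listed in 1 group only. Of the Polycomb list at most the 3 regions with the lowest p per comparison are named, and for EZH1, EZH2, EED and SUZ12 the 3 genes with the most similar profile. Alternatives covered the scale, centring, q threshold, merging, list size and each library left out. The pileup scale was added after the values were seen.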

Additional observations from a re-analysis of the deposited data

How the results depend on the processing

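The number of PRC2 regions called between NB4 and K562 was 5, all lower in NB4, and it became 3 on the percentile of -log10 q (2 higher, 1 lower), 10 without centring (all lower, as were 7387 of 10535 regions, with 426 higher), 3 with summit windows, where 11 PRC2 regions were tested and AEBP2 exon 1 and JARID2 exon 7 were not, 10 on the pileup (9 higher, 1 lower), 10 on it without NB4 Control 3, and 4 to 6 with 1 library left out. On the percentile, AEBP2 exon 1, JARID2 5′ UTR, exon 7, exon 8 and 3′ UTR turned to 5.57, 1.94, 3.63, 2.31 and 10.9 points higher in NB4. On the pileup these were 1.11, 0.45, 0.58, 0.45 and 1.12 (log2), and 1.17, 0.48, 0.61, 0.51 and 1.14 without NB4 Control 3. The pileup leaves out the local background by construction. Between K562 WT and HepG2 the count of 1 became 2 on the percentile, 8 without centring, 2 with a peak in at least 1 library of each group, 7 on the pileup and 0 to 0 with 1 library left out, and AEBP2 intron 1 turned to 0.48 without centring. For K562 Control against WT the count of 0 became 1 without centring and 0 to 2 with 1 library left out, where the lone library is assumed to vary like the other group: EED and MTF2 5′ UTR were called without Control 1, and EED and JARID2 exon 7 without Control 2, while the calls over all regions went from 0 to 5398 of 25975 and 4728 of 25601. For the knockdown the count of 0 became 1 on the pileup without NB4 Control 3 and stayed at 0 to 0 with 1 library left out. Where no cause is given, the cause was not tested.

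With lists cut to equal size, regions listed in 1 group only went from 2 to 0 for the K562 knockdown, from 0 to 1 for the NB4 knockdown, from 6 to 1 for NB4 against K562, from 12 to 6 for K562 WT against HepG2 and from 7 to 3 for K562 Control against WT. With 1 library left out they ran from 2 to 5, 0 to 2, 6 to 9, 12 to 14 and 7 to 10. Without K562 KD 1 the K562 count was 5, and without NB4 KD 3 the NB4 count was 2. The 6 genes with a peak in all 14 libraries numbered 6 under each of the 3 alternatives tried.

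Same-numbered Control and KD libraries did not deviate together (correlations -0.06 in K562 and -0.04, -0.02 and -0.11 in NB4), so the numbers were not taken as pairs. With a replicate block the knockdown still gave 0 PRC2 regions and NB4 against K562 gave 5. For K562 WT against HepG2 a block within each line leaves no residual degrees of freedom, and a replicate block shared by both lines, added after the values were seen, gave 0 PRC2 regions in place of 1 (AEBP2 intron 1, limma adjusted p = 0.0559), with 1804 higher and 2405 lower over all regions. Groups of 2 or 3 libraries, approximate depth in 3 of them and lists cut at the caller's threshold limit what could be detected.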
